A study of Mus musculus with 12 samples.

Results

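The enzymes that write, copy and remove methyl groups on cytosine, and the enzymes that feed them, were followed in the open chromatin of mouse hematopoietic stem cells (HSCs). These are 9 genes: Dnmt1, Uhrf1, Dnmt3a, Dnmt3b, Tet1, Tet2, Tet3, Idh1 and Idh2. Their members were regions of open chromatin, chosen by position only: every region whose summit lay in the gene body or within 10 kb of it was taken, whatever its values. Of 71006 regions found over 12 libraries, 51 belonged to these genes, and 30 of the 51 entered the tests among 37880 regions tested in all.

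Chromatin was assayed by ATAC-seq, which reads out where a transposase can cut and tag DNA. Nuclei came from bone marrow HSCs of C57BL/6 mice, sorted as Lin-/cKit+/Sca1+/Flk2-/CD48-/CD150+ cells, and no group received a treatment. There were 4 groups of 3 libraries each, namely WT at 3 months (young), Mlkl-/- at 3 months, WT at 18 months (aged) and Mlkl-/- at 18 months, with Mlkl, the pseudokinase that carries out necroptosis, deleted in every cell of the knockout animals. Each library was a pool of cells from several mice, with more mice in a young than in an aged pool, and the sex of the pooled animals is not given. The comparisons asked what age changes at these genes, what loss of Mlkl changes, and whether the change with age depends on Mlkl.

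DNA methyltransferases attach a methyl group to cytosine, mostly where it is followed by guanine (a CpG site). DNMT1, guided by UHRF1 to newly replicated DNA, copies the pattern of the parental strand, whereas DNMT3A and DNMT3B place methyl groups at new sites. TET enzymes oxidize the methyl group as the first step of its removal and need 2-oxoglutarate, the product of the isocitrate dehydrogenases IDH1 and IDH2. In blood, loss of DNMT3A or TET2 in HSCs favours self-renewal over differentiation, and mutations in both are common in the clonal expansions of ageing human marrow.

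Values are ranks within a library, because the deposited lists hold summits with a peak score but no read counts, and so depth is unknown. The lists held between 36805 and 63125 summits, 36805 to 58031 in the young and 48674 to 63125 in the aged libraries. Each was therefore cut to its 35714 summits of highest score (equal-length lists). A region's percentile is the percentage of the regions called in the same list that had a lower score, and its normal score is the rank turned into a standard normal value, where a region not called lies between −0.575 and −0.525. Summits at 4 single-copy genes of the Y chromosome were present in 3 of 6 young and in 0 of 6 aged lists, so the mix of sexes may also differ with age. Of 10 HSC marker genes, 4 to 8 had a called start in the deposited young lists and 5 to 9 in the aged ones. Kit and Hlf were called in all 12, but Slamf1, which encodes the CD150 used to sort the cells, was called in 0 lists. Of 13 genes that mark other cells or lie outside the gate, 2 to 4 were called in young and 1 to 3 in aged lists. The receptor gene Flt3, whose protein (Flk2) the gate excludes, was called in 12 and Col1a1 in 11 lists, whereas Cd3e, Ms4a1, Ly6g, Mpo, Cdh5 and Alb were called in 0. The start of Mlkl was called in 3 of 3 deposited lists of every group, so these summits do not check the genotype labels.

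Regions are named by gene and by the distance of the summit from the nearest start of a protein-coding transcript in GENCODE, with a minus sign for upstream. The 3 stretches shown next carry age differences described below. They lay away from starts and in no annotated exon, and each is given as the 201 bases around its summit on the strand of its gene (GRCm38, mm10). Capitals mark the ETS motif AGGAAGT, the only one of the motifs searched that occurred in them. The Dnmt3a −35.84 kb sequence is chr12:3855787-3855987, Tet2 +80.92 kb is chr3:133463345-133463545 and Tet3 +28.57 kb is chr6:83413003-83413203.
Dnmt3a −35.84 kb: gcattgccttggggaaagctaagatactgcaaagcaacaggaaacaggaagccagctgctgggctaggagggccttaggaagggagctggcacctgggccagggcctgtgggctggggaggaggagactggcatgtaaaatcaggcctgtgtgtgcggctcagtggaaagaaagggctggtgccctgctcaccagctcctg
Tet2 +80.92 kb: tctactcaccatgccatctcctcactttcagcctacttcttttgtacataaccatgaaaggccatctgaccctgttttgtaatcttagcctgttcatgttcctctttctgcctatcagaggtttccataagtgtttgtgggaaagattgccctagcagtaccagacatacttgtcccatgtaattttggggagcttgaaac
Tet3 +28.57 kb: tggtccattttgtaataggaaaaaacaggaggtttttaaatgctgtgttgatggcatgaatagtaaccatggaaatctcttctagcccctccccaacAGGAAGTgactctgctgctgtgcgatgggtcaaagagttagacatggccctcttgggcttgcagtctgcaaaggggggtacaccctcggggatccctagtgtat
These stretches held 1, 0 and 2 CpG sites, respectively. In the Tet3 stretch the ETS motif began 3 bases before the summit.

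Promoter sequence was not uniform, as the 250 bases before a RefSeq start of Dnmt3a (chr12:3806730-3806979, build GRCm38.p6) and of Dnmt1 (chr9:20952980-20953229) show. Both were chosen because a tested region overlaps them and no exon does. Capitals mark the GC box GGGCGG, a site for SP-family factors, which occurred 5 times before the Dnmt3a start.
Dnmt3a promoter: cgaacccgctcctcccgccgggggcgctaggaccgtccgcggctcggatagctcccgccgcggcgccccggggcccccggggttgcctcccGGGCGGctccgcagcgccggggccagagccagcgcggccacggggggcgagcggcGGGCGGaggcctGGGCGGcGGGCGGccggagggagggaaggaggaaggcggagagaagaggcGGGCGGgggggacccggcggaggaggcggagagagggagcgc
Dnmt1 promoter: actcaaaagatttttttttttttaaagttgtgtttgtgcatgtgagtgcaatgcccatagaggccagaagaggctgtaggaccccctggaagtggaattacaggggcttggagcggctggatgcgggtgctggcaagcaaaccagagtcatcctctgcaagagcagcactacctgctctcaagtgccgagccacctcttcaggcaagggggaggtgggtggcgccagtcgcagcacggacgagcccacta
The Dnmt3a stretch held 38 CpG sites and the Dnmt1 stretch 7, with none of the motifs searched. Another Dnmt1 promoter (chr9:20952574-20952873, 300 bases) held 33 CpG sites. All 9 genes were matched to RefSeq promoters (15 promoters of 300 bases each). The Tet2 promoter had 57 CpG sites, more than 99.8% of the 32851 promoters of all genes, whose median was 7, and the member promoters ranged down to 2 at the most upstream Dnmt1 start.

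Most regions at starts of the 9 genes were CpG-rich and widely called, and most others were CpG-poor. Within the 201 bases around the summit, the 13 member regions within 1 kb of a coding start of their gene had a median of 19 CpG sites, the other 38 had 2.5, and all tested regions had 5. A GC box was present in 12 of the 13 (92.3%) and in 3 of the 38 (7.89%), against 26.1% of all tested regions. An exception at a start was Idh1 +759 bp, with 5 CpG sites. Start regions not called in all 12 equal-length lists were Dnmt3a +916 bp (0 lists), Dnmt3a −197 bp (3), Uhrf1 −8 bp (7) and Dnmt3b +71 bp (10). The ETS motif was present in 0 of 13 and in 7 of 38 (18.4%; all tested regions 16.1%), and the RUNX motif TGTGGT in 1 of 13 and in 11 of 38 (28.9%; all 22.6%). The GATA motif AGATAA occurred in 0 and 3 of them (8.55% of all tested regions), the AP-1 motif TGANTCA in 0 and 7 (10.1%), the CRE motif TGACGTCA in 0 and 0 (1.3%), CCAAT in 6 and 13 (23.3%), and the E2F motif (TTTGGCGC or TTTCGCGC) in 1, at Dnmt1, and 0 (0.512%). The 13 and the 38 include regions that were not tested, whereas the comparison set holds tested regions only. Among the 30 tested member regions, ETS was present in 3, RUNX in 6, AP-1 in 2 and GATA in 1. Each of these shares was below that of all tested regions. The GC box and CCAAT were present in 14 each and E2F in 1, shares above those of all tested regions, and CRE in 0. Motifs were searched on both strands, and a match describes the letters only.

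**Figure D1:**
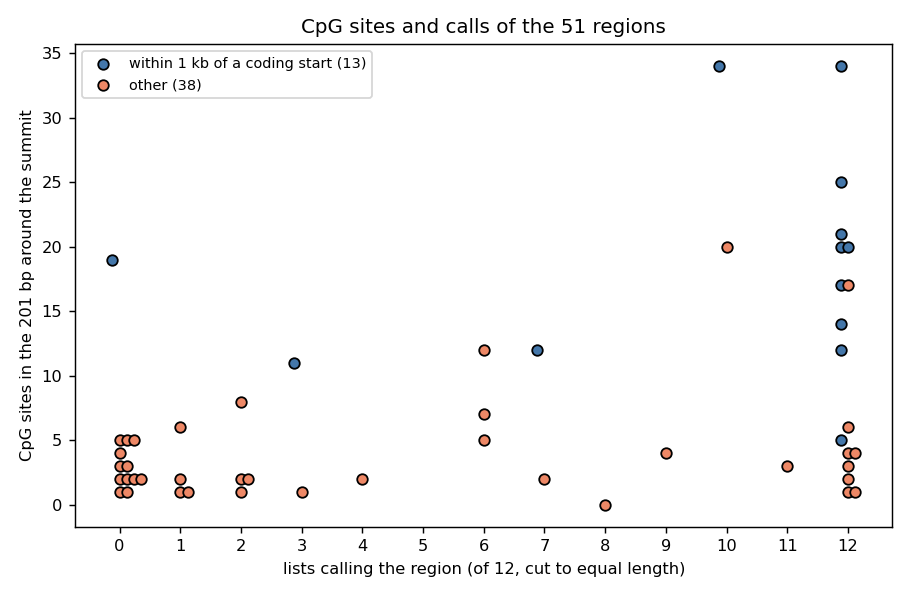
CpG sites in the 201 bp around the summit (vertical axis) against the number of equal-length lists that call the region (horizontal axis, of 12), 1 point per region, with coinciding points set side by side. Of the 13 regions within 1 kb of a coding start (blue), 9 were called in all 12 lists, and the median was 19 CpG sites against 2.5 for the other 38 (orange).

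Of the 51 regions, 17 (33.3%) were called in all 12 equal-length lists, compared with 21.9% of all regions, and 13 (25.5%) in none, compared with 26.4%. Another 8 were called in 1 or 2 lists and, like those 13, were not tested. In the deposited lists at a score of at least 3, 23 (45.1%; all regions 28.6%) were called in 12 lists and 8 (15.7%; all 17.0%) in a single list. By place, 13 lay within 1 kb of a coding start of the gene (9 called in all 12 lists), 25 inside the gene away from starts (7 in all 12), 10 outside the gene (0 in all 12) and 3 at starts of another gene (1 in all 12). The equal-length lists called 24 to 29 of the 51 regions each, with 24 to 27 in the young and 24 to 29 in the aged libraries. Deposited lists called 26 to 33 in the young and 30 to 39 in the aged libraries, and the aged lists tended to be longer, with overlap between the ages.

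A start of the gene was called in all 12 equal-length lists for 7 of the 9 genes (77.8%), compared with 42.4% of 21827 protein-coding genes. In the deposited lists it was 8 of 9, with Dnmt3b added (88.9%; all genes 49.5%). The exception was Tet1, which had no summit of any score within 1 kb of its GENCODE coding starts (chr10, 62880014 and 62899118) in any list, as was so for 34.1% of all genes at a score of at least 3. The nearest Tet1 summits lay 5989 to 6896 bp away. The curated RefSeq start of Tet1 is at 62887324, however, and the region that covers it (Tet1 −7.10 kb, chr10:62886660-62887608) was called in 6 equal-length and 8 deposited lists.

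**Figure D2:**
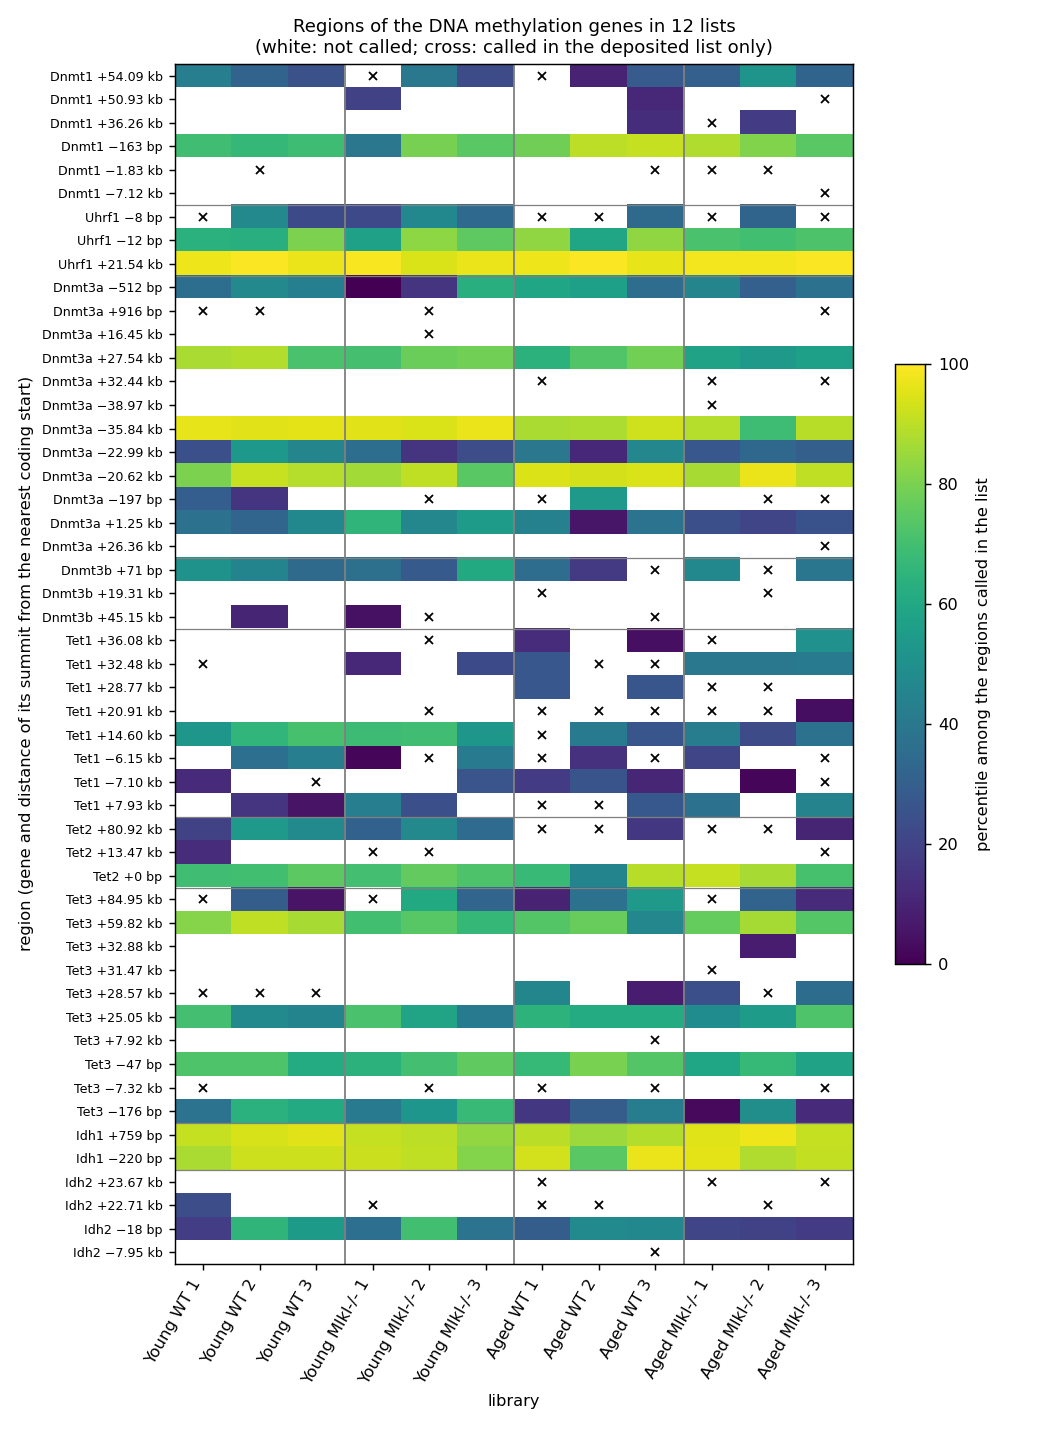
Percentile of each of the 51 regions (rows, by gene and distance of the summit from the nearest coding start) in each of the 12 equal-length lists (columns). White cells were not called, and crosses mark regions called in the deposited list only. Dnmt3a −35.84 kb and −20.62 kb, Uhrf1 +21.54 kb and both Idh1 regions were among those in the upper part of every list. Tet1 and Dnmt3b had no region called in all 12.

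With age, no member region passed the threshold of an adjusted p under 0.01 (limma, 0 of 30), while 2.72% of all tested regions did. That background was 1029 regions, and it was 61 with list length as a covariate, 330 with the presence of Y-gene summits as a covariate and 212 in a subset of 9 libraries marked in their file names for a reason not given. At an adjusted p under 0.05, 2 of 30 passed (7.77% of all tested regions), and both were lower in the aged libraries: Dnmt3a −35.84 kb, in an intron, and Tet2 +80.92 kb, just past the 3′ end of the gene. At an unadjusted p under 0.05 there were 8 of 30 (all tested regions 22.2%), 3 higher in aged (all 11.4%) and 5 lower (all 10.7%). The values of the 6 young and 6 aged lists did not overlap in 3 of 30 regions that were lower in aged (all 1.76%) and in 0 that were higher (all 2.12%). The median change over the 30 was −0.0328 in normal score, against −0.00723 over all tested regions, with 14 higher and 16 lower. A region enters the tests when 3 lists of any group call it, so one called at 1 age only had to differ. Of the 30 regions, 22 were called in at least 3 lists of each age, 6 of them (27.3%) with an unadjusted p under 0.05, against 16.6% of all such regions. The other 8 are Dnmt3a −197 bp, Uhrf1 −8 bp, Tet1 −6.15 kb, −7.10 kb, +32.48 kb and +36.08 kb, Tet2 +80.92 kb and Tet3 +28.57 kb. Their age estimates are given as descriptions. The shares lower in aged (5 of 30), without overlap (3 of 30, 10.0%) and among the 22 (6 regions) were above the background, each on few regions. Of the 3 regions without overlap, Tet2 +80.92 kb reached the minimum of 3 lists through the young libraries alone, so the filter favoured its difference. No test of the 30 as a list was made. A pooled library cannot tell less accessible DNA in each cell from fewer cells with an open site.

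**Figure D3:**
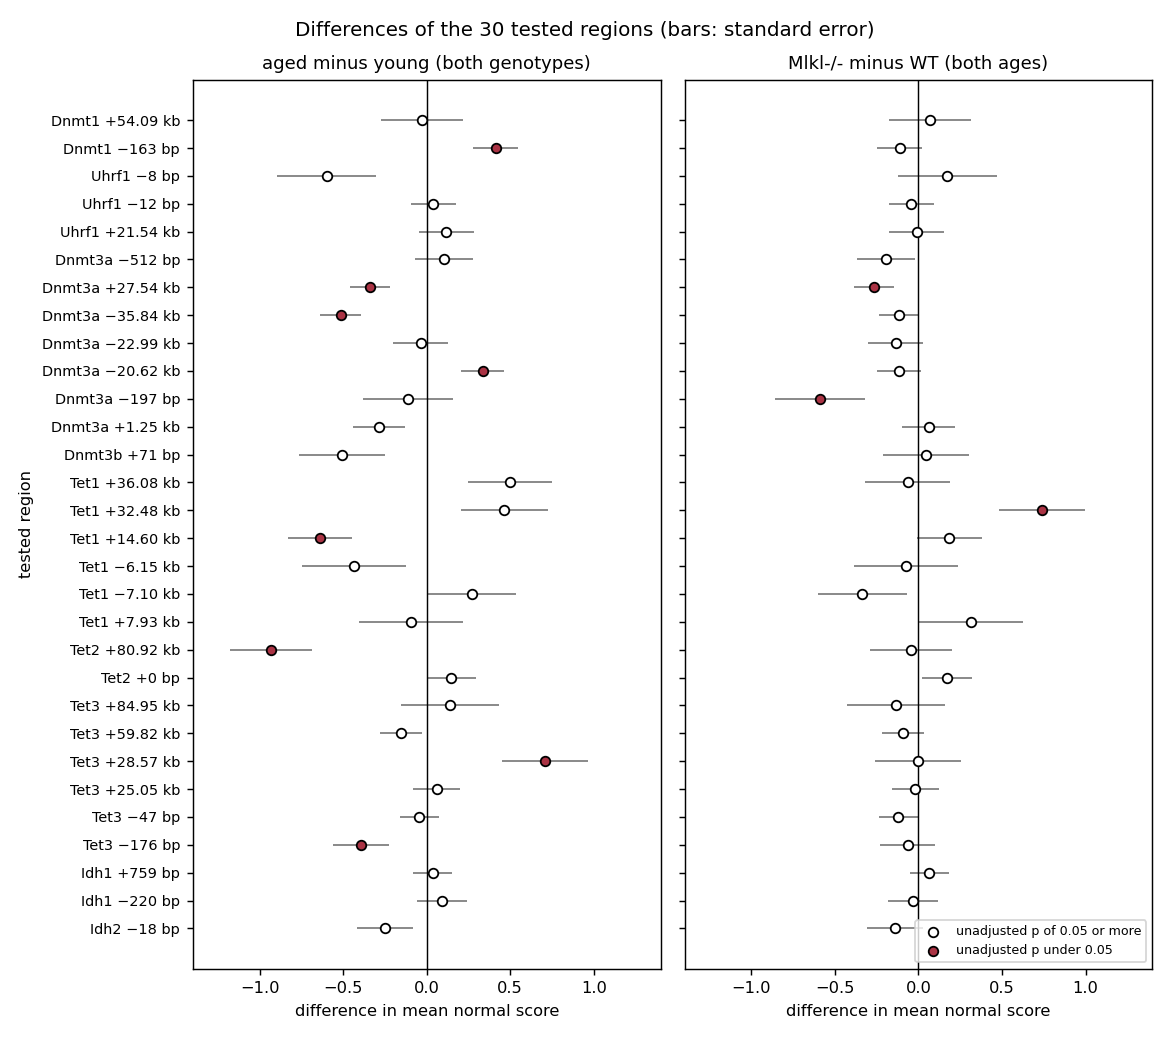
Difference in mean normal score for each of the 30 tested regions, aged minus young over both genotypes (left) and Mlkl-/- minus WT over both ages (right), with the standard error as bars. Filled points have an unadjusted p under 0.05 (8 for age and 3 for genotype), and none of the 30 has an adjusted p under 0.01 in either panel.

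Among the maintenance genes, the Dnmt1 promoter ranked higher in aged HSCs without passing a threshold after adjustment. The Dnmt1 −163 bp region (chr9:20952274-20953240, summit in the first coding exon of the somatic transcript) was called in all 12 lists. Its percentiles were 69.5, 66.4 and 68.8 in young WT, 39.7, 79.4 and 74.6 in young Mlkl-/-, 78.1, 90.0 and 91.2 in aged WT, and 88.2, 81.1 and 74.2 in aged Mlkl-/-. The WT ages did not overlap, the Mlkl-/- ages did, and 1 young Mlkl-/- library stood below the others. The change with age was 0.41 ± 0.14 (SE) in normal score, with an adjusted p of 0.0736. It was 0.50 ± 0.19 in WT and 0.33 ± 0.19 in Mlkl-/-. A limma fit with list length as a covariate gave 0.42 ± 0.19 (adjusted p = 0.267). With the presence of Y-gene summits as a covariate, limma gave 0.35 ± 0.17 (adjusted p = 0.268). Leaving out any 1 library gave changes of 0.306 (without young Mlkl-/- library 1) to 0.482. The other tested region at Dnmt1, +54.09 kb, lies at the start of Eif3g and was called in 10 of 12 lists with a change of −0.03 ± 0.25. Of the other 4 Dnmt1 regions none was called in 3 equal-length lists.

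Uhrf1, which recruits DNMT1 to hemimethylated DNA, had 2 regions at its alternative starts. The upstream one (−8 bp, chr17:56303022-56303680) was present in 5 of the 6 young lists, missing in 1 WT library, and in 2 of the 6 aged lists, 1 of each genotype. All 12 deposited lists called it, with scores of 5.40 to 15.2 in young and 4.22 to 11.6 in aged libraries. Its change of −0.60 ± 0.30 had an adjusted p of 0.24, and the ages overlapped. This estimate is a description, since the region reached the minimum of 3 lists through the young libraries alone. The downstream one (−12 bp, chr17:56303797-56304624) was called in all 12 lists at percentiles of 63.9, 63.3 and 80.3 in young WT, 57.3, 83.1 and 75.2 in young Mlkl-/-, 83.2, 58.7 and 83.2 in aged WT, and 71.2, 69.7 and 72.1 in aged Mlkl-/-. Each group's range overlapped the others, and the change was 0.04 ± 0.13. The region at Uhrf1 +21.54 kb is the start of the histone demethylase gene Kdm4b and lay between percentiles 94.2 and 99.5 in every list.

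Dnmt3a held more regions than any other of the 9 genes, 12 over its body and flanks, and 6 of them were called in all 12 equal-length lists. The gene (chr12:3806007-3914443, plus strand) has an upstream and an internal group of coding starts, which give the long and the short protein. The Dnmt3a region that ranked highest in young HSCs lay between them. Dnmt3a −35.84 kb (chr12:3855601-3856485), in the intron before the internal starts, had percentiles of 96.3, 95.4 and 95.8 in young WT, 95.3, 94.4 and 97.2 in young Mlkl-/-, 87.4, 87.5 and 92.8 in aged WT, and 88.9, 69.1 and 89.2 in aged Mlkl-/-. Every young library lay above every aged one, and the lowest was aged Mlkl-/- library 2. The mean normal score was 2.11 ± 0.11 (SD, n = 6) in young and 1.60 ± 0.25 (n = 6) in aged libraries. That difference of −0.51 ± 0.12 (SE) had an adjusted p of 0.015. In WT it was −0.41 ± 0.17 and in Mlkl-/- −0.62 ± 0.17, and the genotypes' changes did not differ detectably (−0.21 ± 0.24; adjusted p = 0.965). With the length of the list as a covariate the change was −0.58 ± 0.17 (adjusted p = 0.0758), and with the presence of Y-gene summits as a covariate it was −0.56 ± 0.15 (adjusted p = 0.05). With percentiles in place of normal scores the adjusted p was 0.0641, and leaving out any 1 library gave between 0.015 and 0.0439. The deposited scores themselves, which depend on depth, overlapped: 37.7 to 43.6 in young and 18.5 to 45.0 in aged libraries.

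At another 2 regions of Dnmt3a the age estimates had opposite signs, neither past the threshold. Dnmt3a +27.54 kb (chr12:3834299-3835401), in the intron after the upstream starts, had percentiles of 87.3, 88.6 and 71.5 in young WT, 70.4, 77.5 and 78.8 in young Mlkl-/-, 64.3, 72.8 and 78.8 in aged WT, and 57.5, 54.1 and 56.5 in aged Mlkl-/-. The aged Mlkl-/- libraries lay below all others, and the other 3 groups overlapped. Its change with age was −0.34 ± 0.12 (adjusted p = 0.0932). Dnmt3a −20.62 kb had percentiles of 80.1, 91.6 and 89.0 in young WT, 86.1, 90.4 and 74.2 in young Mlkl-/-, 94.7, 93.6 and 94.2 in aged WT, and 86.7, 97.0 and 90.6 in aged Mlkl-/-. Aged WT lay above young WT in every library, and the Mlkl-/- ages overlapped. Its change was 0.33 ± 0.13 (adjusted p = 0.131). The −35.84 kb and −20.62 kb regions stood in a different order at the 2 ages: −35.84 kb was the higher of the pair in 6 of 6 young libraries and in 1 of 6 aged libraries.

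None of the remaining tested Dnmt3a regions passed the threshold for age or genotype. The upstream promoter region (−512 bp, chr12:3806044-3806826) had percentiles of 36.2, 47.0 and 43.3 in young WT, 0.4, 15.4 and 62.8 in young Mlkl-/-, 59.3, 56.5 and 35.8 in aged WT, and 45.3, 30.7 and 37.1 in aged Mlkl-/-. The young Mlkl-/- libraries covered the widest range, and all groups overlapped (change with age 0.11 ± 0.17). The region at the internal starts (−197 bp, chr12:3891209-3891781) was found in 3 WT lists of 6 but 0 Mlkl-/- lists of 6 at equal length, and in 4 and 3 of the deposited ones. Dnmt3a −22.99 kb and +1.25 kb, both called in all 12 lists, had estimates of −0.04 ± 0.17 and −0.29 ± 0.16. At +1.25 kb the percentiles were 65.5, 46.3 and 55.0 in young Mlkl-/-, above all of the aged Mlkl-/- values of 24.4, 20.8 and 25.0, and the WT ages overlapped at 37.8, 32.7 and 46.6 in young and 44.1, 5.9 and 38.1 in aged libraries. The 5 untested Dnmt3a regions were called in 0 equal-length lists, including one 916 bp after the upstream starts with 19 CpG sites.

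Dnmt3b had 1 tested region, its promoter (+71 bp, chr2:153649006-153649970, shared with the start of Dnmt3bos). Percentiles were 51.4, 45.2 and 34.5 in young WT, 37.0, 28.3 and 60.7 in young Mlkl-/-, 35.6 and 17.0 in aged WT with 1 library not called, and 46.8 and 39.3 in aged Mlkl-/- with 1 not called. All 6 young lists and 4 of 6 aged lists called it, and called values of the ages overlapped. All 12 deposited lists held it, the 2 missing libraries at scores of 7.09 and 5.84. Its change was −0.50 ± 0.26 (adjusted p = 0.248). The other 2 Dnmt3b regions were called in 0 and 2 equal-length lists.

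Tet1, the TET gene with no region called in all 12 equal-length lists, had 8 regions, each inside the gene body. Tet1 +14.60 kb (chr10:62865089-62865823, an intron in GENCODE) was the most often called. Its percentiles were 53.1, 65.8 and 70.9 in young WT, 68.7, 69.2 and 53.0 in young Mlkl-/-, 41.1 and 26.6 in aged WT with 1 library not called, and 42.5, 22.8 and 37.8 in aged Mlkl-/-. Every young library lay above every aged one. The change was −0.64 ± 0.19 (adjusted p = 0.0501), −0.83 ± 0.27 in WT and −0.45 ± 0.27 in Mlkl-/-. A fit that included the number of summits per list gave −0.67 ± 0.27 (adjusted p = 0.202). Tet1 +36.08 kb was absent from the 6 young lists at equal length and present in 3 of the 6 aged ones, through which alone it entered the tests (change 0.50 ± 0.25, as a description). In the deposited lists it was held by 1 young and 4 aged libraries. The other tested Tet1 regions, each called in 6 or 7 lists, had age estimates of −0.44 ± 0.31 (−6.15 kb), 0.27 ± 0.27 (−7.10 kb), −0.09 ± 0.31 (+7.93 kb) and 0.46 ± 0.26 (+32.48 kb). Of these, −6.15 kb reached the minimum of 3 lists through the young libraries alone. The −7.10 kb and +32.48 kb regions reached it through the aged ones alone, so all 3 estimates are descriptions. The −6.15 kb estimate was 0.0854 with list length as a covariate and −0.966 with Y-gene summits. In the deposited lists, 3 to 5 of the 8 Tet1 regions were called in young and 5 to 8 in aged libraries, and in the equal-length lists 2 to 4 and 3 to 5.

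Tet2, the TET gene most often mutated in human blood disorders, had 3 regions. The one past its 3′ end (+80.92 kb, chr3:133463151-133463702) was present at equal length in all 6 young lists but in only 2 of the 6 aged ones. Percentiles were 19.9, 54.1 and 48.0 in young WT, 31.1, 47.1 and 34.8 in young Mlkl-/-, 16.4 in the 1 aged WT library that called it and 10.4 in the 1 aged Mlkl-/- library. No aged value reached the lowest young one. The mean normal score was 0.68 ± 0.16 (SD, n = 6) in young and −0.26 ± 0.46 (n = 6) in aged libraries, where 4 of the 6 aged values are the value of a region not called. The region reached the minimum of 3 lists through the young libraries alone. The change was −0.93 ± 0.25 (SE; adjusted p = 0.0251), −0.95 ± 0.35 in WT and −0.92 ± 0.35 in Mlkl-/-. All 12 deposited lists held the region, with overlapping scores of 7.33 to 15.3 in young and 3.83 to 10.5 in aged libraries. With list length as a covariate the change was −1.14 ± 0.33 (adjusted p = 0.079), and with Y-gene summits −1.03 ± 0.31 (adjusted p = 0.0719). In lists of unequal length it was −0.59 ± 0.19 (adjusted p = 0.0478). Leaving out 1 library gave an adjusted p of 0.0133 to 0.0639, and it was above 0.05 without young WT library 2 or 3, aged WT library 1, or aged Mlkl-/- library 1 or 2.

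The Tet2 promoter region (chr3:133543954-133545410, summit in the 5′ UTR of exon 1, shared with the start of Gm42567) did not move with it. It had percentiles of 69.4, 69.8 and 74.6 in young WT, 70.3, 76.1 and 71.9 in young Mlkl-/-, 67.7, 45.0 and 89.3 in aged WT, and 91.0, 86.8 and 70.9 in aged Mlkl-/-. The 6 young libraries lay close together and the aged ones on both sides of them. The change was 0.15 ± 0.15 (adjusted p = 0.617).

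Tet3 had 10 regions, 4 of them called in all 12 lists. Its upstream promoter region (−176 bp, chr6:83455268-83457278) had percentiles of 38.1, 63.9 and 61.0 in young WT, 41.0, 52.4 and 67.3 in young Mlkl-/-, 16.2, 29.6 and 41.9 in aged WT, and 2.4, 49.4 and 12.4 in aged Mlkl-/-. The ages overlapped, and the change was −0.39 ± 0.17 (adjusted p = 0.167). With list length as a covariate it was −0.17 ± 0.21, and with Y-gene summits −0.58 ± 0.19. The promoter at the downstream start (−47 bp, chr6:83441228-83441994, shared with the start of B230319C09Rik) had percentiles of 72.4, 72.6 and 61.4 in young WT, 64.4, 70.2 and 75.8 in young Mlkl-/-, 67.1, 79.9 and 73.4 in aged WT, and 59.2, 67.0 and 57.5 in aged Mlkl-/-. The ages overlapped in both genotypes (change −0.05 ± 0.12), and each aged Mlkl-/- library lay below each aged WT one.

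Tet3 +28.57 kb (chr6:83412853-83413524), the intron region with the ETS motif at its summit, was the reverse of the Tet2 region. At equal length 0 young lists and 4 of the 6 aged lists held it, at percentiles of 45.8 and 7.6 in aged WT and 24.6 and 35.2 in aged Mlkl-/-. Since it entered the tests through the aged lists alone, its estimate is a description. The change was 0.71 ± 0.26 (adjusted p = 0.104) and was 0.39 ± 0.34 with list length as a covariate. Among the deposited lists, all 3 from young WT mice, 0 from young Mlkl-/- mice, 2 from aged WT mice and all 3 from aged Mlkl-/- mice held it, at scores of 3.24 to 3.48 in young WT and 5.72 to 15.0 in aged ones. The other intron regions of Tet3 called in all 12 lists, +25.05 kb and +59.82 kb, had estimates of 0.06 ± 0.14 and −0.15 ± 0.13. Tet3 +84.95 kb, past the 3′ end, was called in 9 lists with an estimate of 0.14 ± 0.29 (−0.204 with Y-gene summits), and the other 4 Tet3 regions were called in at most 1 equal-length list.

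**Figure D4:**
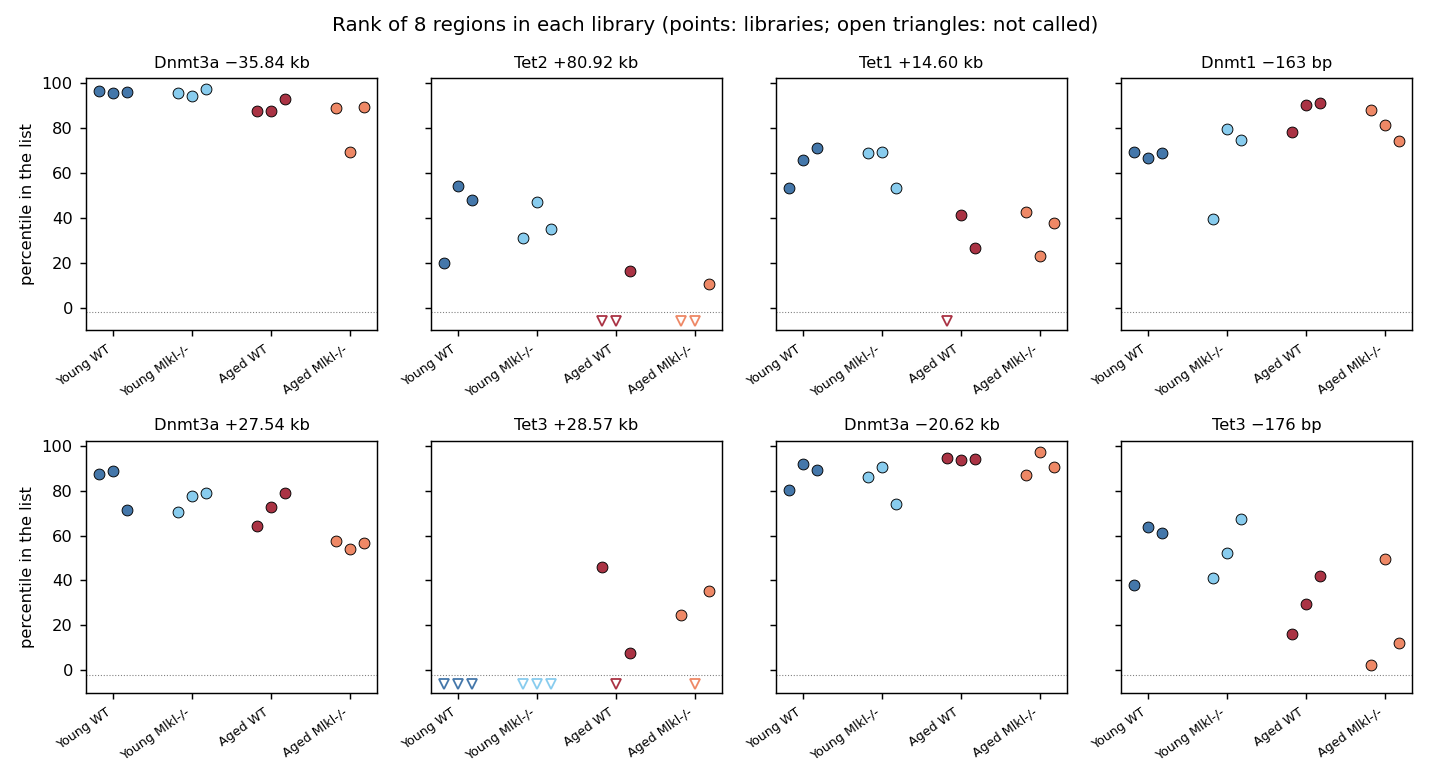
Percentile in each equal-length list (vertical axis) of the 8 regions with an unadjusted p under 0.05 for age, 1 panel each, with 1 point per library and open triangles below the dotted line for libraries that did not call the region. In Dnmt3a −35.84 kb, Tet2 +80.92 kb and Tet1 +14.60 kb every young library lies above every aged one.

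Idh1 and Idh2, which make 2-oxoglutarate in the cytosol and in mitochondria, were open in every library and had no age difference past the threshold. Idh1 has a region at each of its starts. The −220 bp region (chr1:65186126-65186972), shared with the start of Pikfyve, had percentiles of 87.2, 92.4 and 92.4 in young WT, 92.1, 90.2 and 81.5 in young Mlkl-/-, 93.0, 74.4 and 97.0 in aged WT, and 96.0, 88.2 and 91.0 in aged Mlkl-/-. The change was 0.09 ± 0.15. The +759 bp region (chr1:65178095-65179528), at the downstream start, had 91.4, 94.1 and 95.3 in young WT, 91.1, 90.0 and 84.0 in young Mlkl-/-, 89.6, 85.4 and 88.3 in aged WT, and 95.3, 97.6 and 91.3 in aged Mlkl-/-. Aged WT libraries lay below all young WT ones (−0.31 ± 0.16), and aged Mlkl-/- libraries above all young Mlkl-/- ones (0.38 ± 0.16). Over both genotypes its change was 0.04 ± 0.12. The Idh2 promoter (−18 bp, chr7:80114370-80115862) ranked lower, at 18.2, 65.4 and 54.5 in young WT, 36.4, 69.6 and 37.9 in young Mlkl-/-, 29.5, 47.6 and 46.9 in aged WT, and 20.8, 19.3 and 17.9 in aged Mlkl-/-. Aged Mlkl-/- was the lowest group and overlapped young WT only, and the change with age was −0.25 ± 0.17 (adjusted p = 0.408).

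Within single genotypes no member region passed an adjusted p under 0.01 for age, in WT (0 of 30; all tested regions 0.193%; lowest adjusted p 0.129, at Tet1 +14.60 kb) or in Mlkl-/- (0 of 30; all 0.150%; lowest 0.0755, at Dnmt3a −35.84 kb). Unadjusted, 5 and 4 of 30 regions had a p under 0.05 (all tested regions 14.6% and 14.4%). The counts over all regions, 73 in WT and 57 in Mlkl-/-, moved with single libraries: leaving out 1 library gave 1 (without aged WT library 1) to 97 in WT, and 6 (without aged Mlkl-/- library 1 or 2) to 61 in Mlkl-/-.

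Loss of Mlkl left no difference past the threshold at these genes, and none at any tested region. Between genotypes 0 of 30 member regions and 0% of all tested regions had an adjusted p under 0.01 over both ages, at 3 months and at 18 months (limma), with lowest member values of 0.763, 0.87 and 0.87. At an unadjusted p under 0.05 there were 3 of 30 over both ages (all tested regions 6.22%), 1 at 3 months (all 5.36%) and 2 at 18 months (all 5.10%). Tet1 +32.48 kb (chr10:62847247-62847785) was found in 5 Mlkl-/- lists (2 young, 3 aged) and in 1 WT list (aged), with a difference of 0.74 ± 0.26 (Mlkl-/- minus WT). This difference is a description, since the region reached the minimum of 3 lists through the Mlkl-/- libraries alone. Of the deposited lists, 5 Mlkl-/- lists (2 young, 3 aged) and 4 WT lists (1 young, 3 aged) held it. The difference at Dnmt3a +27.54 kb was −0.27 ± 0.12. At Dnmt3a −197 bp it was −0.59 ± 0.27, as a description, since this region entered the tests through 3 WT lists alone. For the genes with no such region, the largest differences were −0.11 ± 0.14 at the Dnmt1 promoter, 0.17 ± 0.30 at Uhrf1 −8 bp, 0.04 ± 0.26 at the Dnmt3b promoter, 0.17 ± 0.15 at the Tet2 promoter, −0.14 ± 0.29 at Tet3 +84.95 kb, 0.07 ± 0.12 at Idh1 +759 bp and −0.14 ± 0.17 at the Idh2 promoter. Over the 30 regions the median difference was −0.0562 (all tested regions 0.00149), with 9 higher and 21 lower in Mlkl-/- (50.3% of all tested regions higher).

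Whether age acted differently in the absence of Mlkl was tested by the difference between the genotypes' changes. It passed the threshold in 0 of 30 member regions and in 0% of all tested regions (lowest member adjusted p 0.965). At an unadjusted p under 0.05 there were 2 of 30 (all tested regions 4.74%), Idh1 +759 bp and Tet3 +59.82 kb, and the median over the 30 was 0.00362 (all 0.00751).

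The partners of these enzymes were described in the same way. Of 7 genes of the methylation machinery (Uhrf2, Hells, Usp7, Cdca7, Dnmt3l, Mat2a and Ahcy; 16 tested regions), 1 region was higher in aged libraries at an adjusted p under 0.01 (all tested regions 2.72%) and 0 were lower. It lay in an intron of Usp7, the deubiquitinase that stabilizes DNMT1 and UHRF1 (chr16:8748037-8748626). Young lists called it in 1 of 6 libraries, at percentile 9.25, and aged lists in 6 of 6, at 22.6 to 58.0 (1.12 ± 0.23; limma adjusted p = 0.00521). The deposited lists held it in 3 of 6 young (1 WT, 2 Mlkl-/-) and 6 of 6 aged libraries. Of 7 genes for proteins that bind methylated DNA (Mbd1, Mbd2, Mbd3, Mbd4, Zbtb33, Zbtb4 and Zbtb38; 20 tested regions), 0 passed in either direction, and 2 had an unadjusted p under 0.05 (all tested regions 22.2%). Of 10 genes of demethylation and 2-oxoglutarate metabolism (Tdg, Smug1, Ogt, Cxxc4, Cxxc5, Gadd45a, Gadd45b, Gadd45g, D2hgdh and Idh3a; 23 tested regions), 1 was higher and 0 were lower. It was an intron region of Cxxc5, which encodes a zinc finger protein that binds unmethylated CpG sites. It was found in 2 young lists, both WT, and in all 6 aged lists, at percentiles up to 12.8 in young and from 40.0 to 62.4 in aged libraries (1.06 ± 0.22; limma adjusted p = 0.00567). The deposited lists held it in 3 of 6 young and 6 of 6 aged libraries. Both it and the Usp7 region reached the minimum of 3 lists through the aged libraries alone, so their differences were favoured by the filter. Another 2 Cxxc5 regions were lower in aged libraries, with changes of −0.78 ± 0.22 and −0.84 ± 0.24 and adjusted p of 0.0384 and 0.0372. These 2 reached the minimum of 3 lists through the young libraries alone, so the filter favoured their differences too. In none of the 3 lists did a region pass for genotype. The medians of the age change were −0.0772, 0.0260 and −0.0254, against −0.00723 over all tested regions.

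The promoters whose ranks over the 12 libraries were most like those of Dnmt3a −35.84 kb were those of Foxp2 (Spearman's rho 0.93), Acot7 (0.923), Tssc4 (0.916), Slc43a1 (0.909) and Cenpa (0.902). They are the highest of 12304 promoter regions, whose median rho was 0.112, and all values share the same 12 lists.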

How the data were processed

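Accessible chromatin of sorted bone marrow HSCs was measured by ATAC-seq in 12 libraries (4 groups of 3). The authors mapped single-end reads to mm10 with Bowtie2 2.5.3 and called peaks per library with MACS2 2.2.7.1, without pooling replicates. The deposited files list summits with a score, the −log10 of the q-value. The study's edgeR counts were not used here, depth is unknown and no counting interval can be given. Summits with a score of at least 3 were kept (the stated cutoff; the lists reach down to 2.00). Windows of 250 bp on each side were merged over the lists, and each list was cut to its 35714 highest summits. All 71006 regions were ranked within lists, and the 37880 called in at least 3 lists were tested. Normal scores of ranks were compared with limma 3.58.1 in R 4.3.3, in 1 fit with 7 contrasts (two-sided; Benjamini-Hochberg over all 37880 regions; adjusted p under 0.01, as in the study). A p-value measures the spread between pools. Genes and starts are from GENCODE vM21 basic. Only the limma fit was tested on simulated data, not the merging and calling of regions. Members, gene lists and alternatives were chosen with earlier results of these data known. Some genes of the related and marker lists and some sequence are not reported here, and the lists' counts leave those genes out. Named regions are each gene's highest-ranked promoter region, those with the largest age and genotype differences, any past the threshold, and, beyond that rule, others chosen after their values were seen.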

Additional observations from a re-analysis of the deposited data

Results flagged for a closer look

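At 2 regions the normal scores of the genotypes lay in opposite order with age. Every aged WT library lay below every young WT one, and every aged Mlkl-/- library above every young Mlkl-/- one. How many of all tested regions had this order was not counted, so the 2 regions are given as descriptions. At Tet3 +59.82 kb (chr6:83381576-83382265, in an intron) the percentiles were 82.0, 90.3 and 87.0 in young WT, 73.3, 76.9 and 46.2 in aged WT, 69.7, 74.0 and 66.7 in young Mlkl-/- and 76.4, 86.7 and 73.5 in aged Mlkl-/-. On this scale 1 aged Mlkl-/- library (73.5) lay below 1 young one (74.0), so the separation in Mlkl-/- holds for normal scores only (lowest aged 1.2175, highest young 1.2101). The change with age was −0.51 ± 0.18 (SE) in WT and 0.20 ± 0.18 in Mlkl-/-, and the difference between them, 0.712, had an adjusted p of 0.965 (limma).

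At Idh1 +759 bp the change was −0.31 ± 0.16 in WT and 0.38 ± 0.16 in Mlkl-/-, a difference of 0.691 with an adjusted p of 0.965. Neither difference passed the threshold.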

How the results depend on the processing

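The counts of member regions past the adjusted p of 0.01 were recomputed for the 7 comparisons under the other settings, and 178 of 179 such counts were 0. The exception was the looser adjusted p of 0.05 for age over both genotypes, which gave 2. Replicate numbers did not pair the libraries: of 18 same-numbered pairs, 1 had a correlation of deviations over 0.1 (range −0.3008 to 0.1281), and with the replicate number as a block (replicate block) each of the 7 counts was 0. Lowest member adjusted p for age over both genotypes ranged from 0.0118 to 0.0758 over the alternatives.

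Of 523 alternative values for single named regions, 499 kept their direction and 24 reversed. For age, list length as a covariate gave −0.00705 at Uhrf1 −12 bp, 0.028 at Tet3 −47 bp and −0.106 at Idh1 −220 bp. Y-gene summits as a covariate gave −0.116 at Dnmt3a −512 bp and −0.028 at Uhrf1 −12 bp. A subset of 9 libraries, marked in the names of their files for a reason not given, gave −0.0295 at the Tet2 promoter and −0.0676 at Idh1 −220 bp. For genotype they gave −0.2 at the Dnmt3b promoter, and lists of unequal length gave −0.015 at Uhrf1 −8 bp. Leaving out each library in turn gave age changes of −0.0305 to 0.101 at Idh1 +759 bp, −0.0134 to 0.226 at Idh1 −220 bp and −0.0335 to 0.124 at Uhrf1 −12 bp. Genotype differences were −0.000457 to 0.131 at Idh1 +759 bp, −0.0215 to 0.358 at Uhrf1 −8 bp, −0.138 to 0.256 at the Dnmt3b promoter and −0.297 to 0.0852 at Tet3 +84.95 kb. For 16 further regions, 23 of 311 age values reversed, at 7 regions. List length as a covariate gave 0.0854 at Tet1 −6.15 kb, 0.0032 at Dnmt3a −22.99 kb and −0.0871 at Tet3 +25.05 kb, and Y-gene summits gave −0.204 at Tet3 +84.95 kb and 0.0355 at Dnmt3a −197 bp. The cause was not tested. Over all tested regions the age count of 1029 ranged from 669 (without aged Mlkl-/- library 1) to 1048 when 1 library was left out, and was 681 without aged Mlkl-/- library 2. The summit lists limit these results, as a rank says nothing of a change shared by all regions. In the equal-length lists a region under the cut entered only as not called, although the deposited list may hold it.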
